A study of Mus musculus with 5 samples.

Results

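The circadian clock genes Per1, Per2, Per3, Cry1, Cry2, Ciart, Nr1d1, Nr1d2, Dbp and Tef were examined in the injured retina of mice given the aldose reductase inhibitor Sorbinil or its vehicle DMSO. Gene positions below are in GRCm39 from GENCODE vM39. The 10 were picked by gene symbol from the deposited table, and all were found among its 25655 genes and passed the filter on low counts. Total RNA of the whole retina was sequenced 7 days after optic nerve crush (ONC), an injury in which the optic nerve is pinched behind the eye. All mice were wildtype C57BL/6, were 8 to 10 weeks old at surgery, and had the left nerve crushed. Sorbinil at 10 mg/kg or DMSO was injected intraperitoneally from 24 h before ONC and then daily. DMSO was represented by 3 retinas, numbered 1, 2 and 3, and Sorbinil by 2, numbered 1 and 3. Mice of both sexes were used in the study, the sex of each mouse is not given in the labels, and no retina without ONC was analysed here. The clock time of dissection is not given in the sources used here, and it bears on every gene described below.

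In the mammalian clock, the activators CLOCK and BMAL1 bind E-box sequences and switch on the Per and Cry genes. The PER and CRY proteins then return to the nucleus and repress the activators, which closes a loop of about a day. A second loop runs through the nuclear receptors REV-ERBα and REV-ERBβ, encoded by Nr1d1 and Nr1d2, which repress Bmal1 against the ROR receptors. The PAR bZIP factors DBP and TEF carry the rhythm to output genes through D-box sequences. The retina holds such a clock of its own, and photoreceptors, inner neurons and glia each express clock genes.

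Counts on genes totalled between 56096541 and 90288552 per retina. Values per gene are CPM, that is counts scaled to a common library size with edgeR's TMM factors, and differences between the groups are log2 fold changes of Sorbinil against DMSO from edgeR's quasi-likelihood test. A gene was called at the threshold of the study's methods, applied in both directions, with an unadjusted p-value no higher than 0.1 and a change of at least 2-fold. The first principal component over the 5 retinas held 65.4% of the variance. Sorbinil replicate 1 stood apart from the other 4 retinas in its cell type markers. Most of its photoreceptor markers were high and most of its inner-retina markers low, and each result is therefore given by retina.

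No clock gene of the 10 was called, compared to 1.71% of the 14992 genes tested, and none had an adjusted p-value under 0.05. The smallest adjusted p-value of a member, 0.758, was also the smallest over all genes. Per1 was the one member with an unadjusted p-value under 0.05, and it was lower with Sorbinil, as were 1.78% of all genes tested at that p-value. Of the other members, 8 had a log2 fold change below 0 and Nr1d2 had one above 0. The median log2 fold change of the 10 genes was -0.27, beside -0.008 over all genes tested. Both Sorbinil retinas lay below every DMSO retina for Per1 and Per2, that is for 2 of 10 members, compared to 10.5% of all genes. No member had both Sorbinil retinas above every DMSO retina, compared to 12.8% of all genes.

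**Figure D1:**
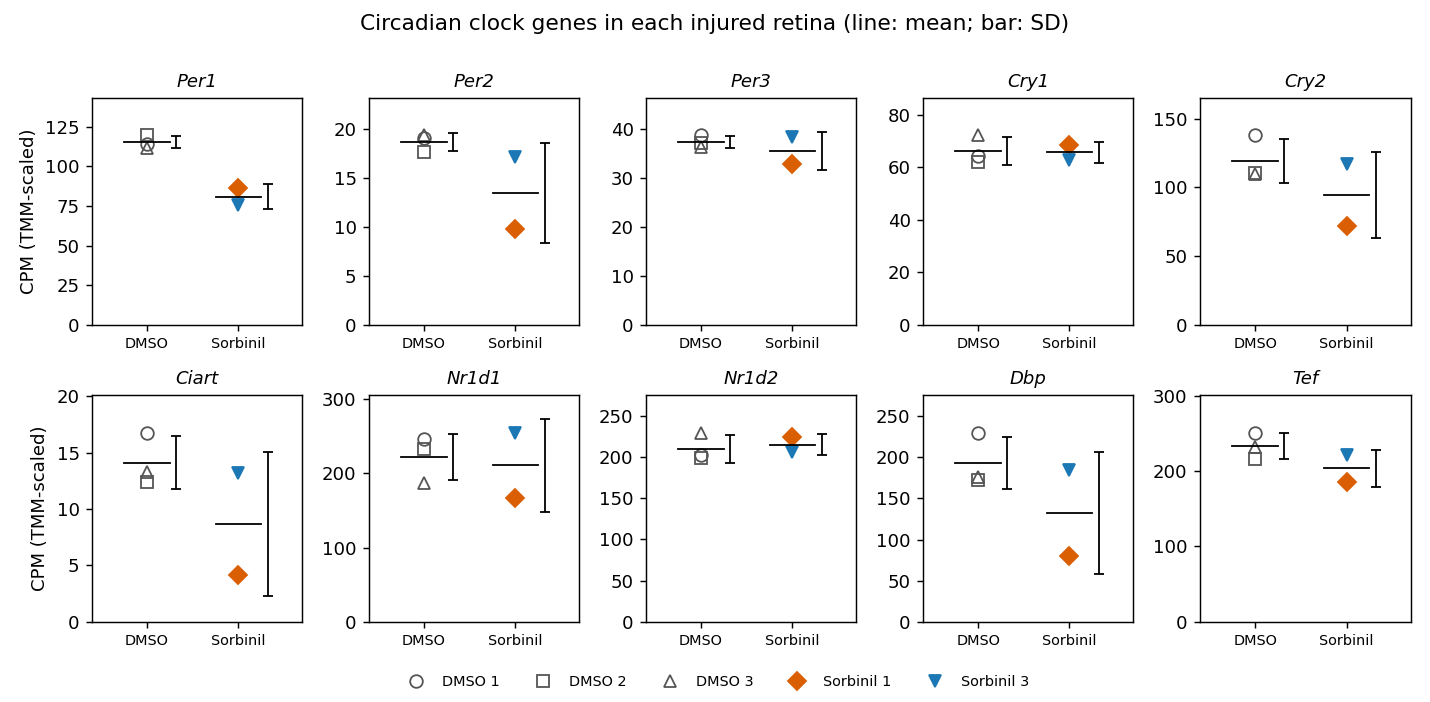
Each panel plots the CPM of a clock gene in the 5 injured retinas, with open grey symbols for DMSO, an orange diamond for Sorbinil replicate 1, a blue triangle for Sorbinil replicate 3, a line at the group mean and a bar of 1 SD. Per1 was lower in both Sorbinil retinas, whereas Ciart, Dbp and Per2 were low mainly in Sorbinil replicate 1.

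Per1 (ENSMUSG00000020893, chr11:68986035-69002300, plus strand) encodes a PER repressor whose gene also responds directly to light and to hormones. It measured 114.5, 119.6 and 111.9 CPM in DMSO replicates 1, 2 and 3, and 86.6 and 75.4 CPM in Sorbinil replicates 1 and 3. The 3 DMSO retinas lay within 1.07-fold of each other, and both Sorbinil retinas were below all of them, at 75.1% and 65.4% of the DMSO mean. Means were 115.3 ± 3.9 CPM with DMSO (SD, n = 3) and 81.0 ± 7.9 CPM with Sorbinil (SD, n = 2). This is a log2 fold change of -0.51 ± 0.12 (standard error), with a 95% interval from -0.81 to -0.21. The edgeR p was 0.00638, and 0.758 after Benjamini-Hochberg adjustment over all genes tested. The direction did not rest on the retina that stood apart, since leaving out Sorbinil replicate 1 gave -0.60 and leaving out Sorbinil replicate 3 gave -0.41. Each of these fits has 1 Sorbinil retina and so no spread within that group. With the replicate number as a block, the edgeR unadjusted p of Per1 was 0.188.

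Per2 (ENSMUSG00000055866, chr1:91343700-91387069, minus strand), a second PER repressor, measured 19.0, 17.6 and 19.3 CPM with DMSO, 9.80 CPM in Sorbinil replicate 1 and 17.1 CPM in Sorbinil replicate 3. The groups did not overlap, but Sorbinil replicate 3 was only just below the lowest DMSO retina while Sorbinil replicate 1 was at 52.5% of the DMSO mean. Its log2 fold change of -0.47 ± 0.25 had a 95% interval of -1.10 to 0.15 (edgeR unadjusted p = 0.113). Leaving out Sorbinil replicate 1 gave -0.12, and leaving out Sorbinil replicate 3 gave -0.93. Per3 (ENSMUSG00000028957, chr4:151081373-151129140, minus strand), a PER family member with a smaller part in timekeeping, measured 38.6, 37.0 and 36.3 CPM with DMSO and 32.8 and 38.2 CPM with Sorbinil. The Per3 values of the groups overlapped, and the log2 fold change was -0.07 (95% interval -0.37 to 0.23).

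Cry1 and Cry2 encode the cryptochromes that hold CLOCK and BMAL1 inactive. Cry1 (ENSMUSG00000020038, chr10:84967560-85021252, minus strand) measured 64.5, 61.9 and 72.2 CPM with DMSO and 68.5 and 63.0 CPM with Sorbinil, so that both Sorbinil retinas lay inside the DMSO range. Its log2 fold change was -0.01, with a 95% interval from -0.32 to 0.30. Cry2 (ENSMUSG00000068742, chr2:92233894-92264474, minus strand) measured 137.8, 110.4 and 109.9 CPM with DMSO, 72.0 CPM in Sorbinil replicate 1 and 116.7 CPM in Sorbinil replicate 3. Only Sorbinil replicate 1 was outside the DMSO range of Cry2, and the log2 fold change of -0.34 ± 0.24 became -0.02 without that retina. Ciart (ENSMUSG00000038550, chr3:95785815-95789991, minus strand), which encodes the repressor CHRONO, measured 16.8, 12.4 and 13.2 CPM with DMSO, 4.13 CPM in Sorbinil replicate 1 and 13.2 CPM in Sorbinil replicate 3. Sorbinil replicate 1 was thus at 29.2% of the DMSO mean, the lowest share of the 10 genes, whereas Sorbinil replicate 3 was inside the DMSO range. The Sorbinil replicate 1 value rests on 217 counts, with an exact Poisson interval of 189 to 248 at 95% that covers counting error only. The log2 fold change of Ciart was -0.70 ± 0.48 (edgeR unadjusted p = 0.199), and it was -0.09 without Sorbinil replicate 1.

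Nr1d1 and Nr1d2, the genes of the REV-ERB repressors, had log2 fold changes near 0. Nr1d1 (ENSMUSG00000020889, chr11:98658752-98666188, minus strand) measured 246.7, 233.6 and 187.6 CPM with DMSO, 166.9 CPM in Sorbinil replicate 1 and 254.9 CPM in Sorbinil replicate 3. The Sorbinil retinas lay on either side of the DMSO range, and the log2 fold change was -0.08 (95% interval -0.64 to 0.49). Leaving out Sorbinil replicate 1 gave 0.21, and leaving out Sorbinil replicate 3 gave -0.41. In the annotation 52.3% of the exon bases of Nr1d1 lie opposite exons of Thra on the other strand, and no source states whether reads were counted by strand. Thra itself had a log2 fold change of -0.26. Nr1d2 (ENSMUSG00000021775, chr14:4230545-4266624, plus strand) measured 202.2, 198.4 and 229.4 CPM with DMSO and 223.8 and 206.2 CPM with Sorbinil, all within the DMSO range. Nr1d2 thus had a log2 fold change of 0.03, with a 95% interval from -0.29 to 0.36.

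Dbp, a PAR bZIP gene under direct E-box control (ENSMUSG00000059824, chr7:45354512-45359627, plus strand) measured 229.9, 173.0 and 175.9 CPM with DMSO, 79.5 CPM in Sorbinil replicate 1 and 184.2 CPM in Sorbinil replicate 3. As for Ciart, only Sorbinil replicate 1 left the DMSO range, at 41.2% of the DMSO mean compared to 95.5% in Sorbinil replicate 3. The log2 fold change of Dbp was -0.55 ± 0.37 (edgeR unadjusted p = 0.189), and it was -0.06 without Sorbinil replicate 1. Part of Dbp (15.5% of its exon bases) lies opposite exons of Sphk2. Tef (ENSMUSG00000022389, chr15:81686622-81711064, plus strand), the other PAR bZIP member, measured 251.2, 216.3 and 232.5 CPM with DMSO and 186.2 and 221.5 CPM with Sorbinil. Its log2 fold change was -0.19 ± 0.14, and Sorbinil replicate 3 was again inside the DMSO range.

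Taken by retina, 8 of the 10 members were below every DMSO retina in Sorbinil replicate 1, all but Cry1 and Nr1d2, compared to 41.7% of all genes tested. In Sorbinil replicate 3 only Per1 and Per2 were below every DMSO retina, compared to 29.1% of all genes. At least 2-fold below the DMSO mean in Sorbinil replicate 1 were 2 of the 10, Ciart and Dbp, compared to 17.4% of all genes. Without Sorbinil replicate 3, Ciart and Dbp passed the threshold of the study, with log2 fold changes of -1.77 and -1.28 and adjusted p of 0.00476 and 0.00647 in edgeR. That fit has 1 Sorbinil retina, which is assumed to vary like the DMSO retinas, and it called 19.0% of the 15266 genes it tested, so that 2 of 10 members is close to the background. At an adjusted p under 0.05 in edgeR, the same fit held 5 members (Per1, Per2, Cry2, Ciart and Dbp) and 36.5% of all genes. The median log2 difference from the DMSO mean over the 10 genes was -0.41 in the former retina and -0.06 in the latter. The 3 DMSO retinas had medians from -0.09 to 0.08.

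Markers of the cell types of the retina moved with these differences in Sorbinil replicate 1. There all 10 rod markers were above every DMSO retina, compared to 6509 of the 14992 genes tested. The rod markers had a median log2 difference of 0.54 and a summed level of 135430 CPM, compared to 82258 to 97825 CPM in the DMSO retinas. Of 9 amacrine and 8 Müller glia markers, all were below every DMSO retina, compared to 41.7% of all genes tested. Their medians were -1.39 and -1.45, and the medians were -1.22 for 9 bipolar markers and -1.34 for 10 ganglion cell markers. Of the bipolar markers, 8 were below and 1 was above every DMSO retina, and 9 of the ganglion cell markers were below. The summed amacrine level was 408.2 CPM, compared to 965.6 to 1256 CPM with DMSO, and the summed Müller glia level was 2081 CPM, compared to 5547 to 6481 CPM. Endothelial and pericyte markers had a median of -2.01 and microglia markers one of -0.94. In Sorbinil replicate 3, 9 of the 10 rod markers were below every DMSO retina (median -0.34, summed level 69377 CPM), compared to 29.1% of all genes tested. No amacrine or Müller glia marker was below every DMSO retina there (medians 0.11 and 0.02). Endothelial and pericyte markers were low there too, with a median of -0.68 and 8 of 10 below every DMSO retina. In the comparison of both Sorbinil retinas with DMSO, 5 of these 10 markers were called lower, compared to 203 of the 14992 genes tested. The summed level of these markers was 145.7 and 350.6 CPM in Sorbinil replicates 1 and 3, compared to 253.7 to 420.2 CPM with DMSO. Kdr alone gave 276.7 CPM of the sum in Sorbinil replicate 3, which was inside the DMSO range. Ganglion cell markers had a median of -0.22 in Sorbinil replicate 3, with 4 of 10 below every DMSO retina, and microglia markers one of -0.16, with 2 of 10 below. Both medians were inside the DMSO range, since DMSO replicate 3 had medians of -0.43 and -0.34. Pigment epithelium markers had medians of -0.79 and 0.06 in Sorbinil replicates 1 and 3. In DMSO replicates 1, 2 and 3 those were -0.37, -0.50 and 0.86. The part of cell composition in the differences of Per1, Per2, Ciart, Dbp, Cry2 and the other members was not tested, and in whole retina fewer cells of a type and less RNA per cell cannot be told apart.

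**Figure D2:**
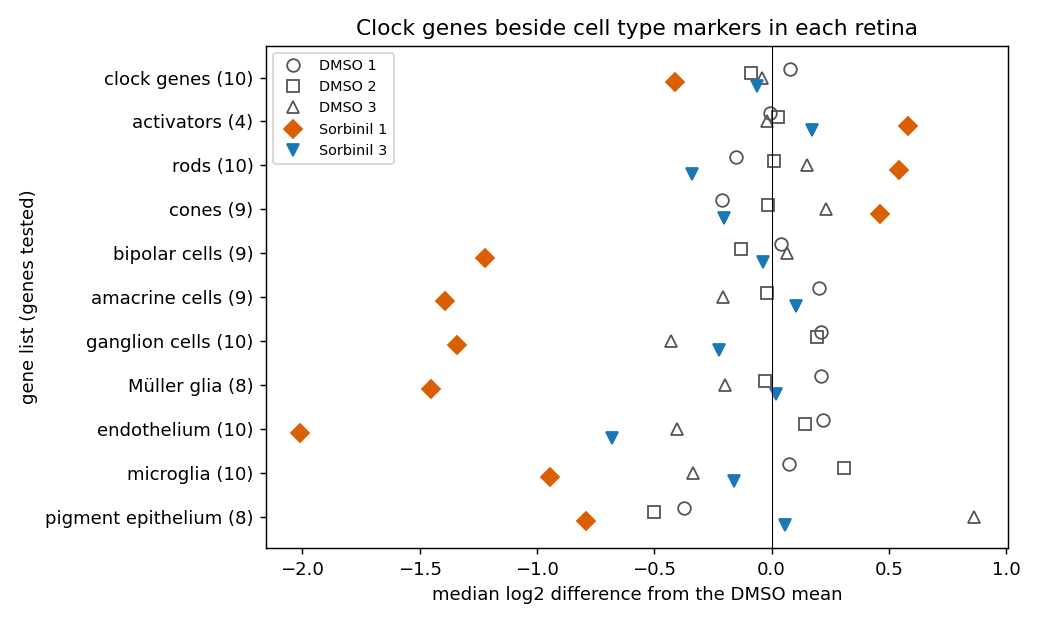
The median log2 difference from the DMSO mean (horizontal axis) of each gene list (rows, with the number of genes tested) is plotted for the 5 retinas, in the symbols of the plot of CPM by gene. In Sorbinil replicate 1 the clock genes were at -0.41 and the rod markers at 0.54. Pigment epithelium markers were at -0.79, microglia markers at -0.94 and Müller glia markers at -1.45 there, and endothelial and pericyte markers were lowest at -2.01.

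Promoter sequences are given for Per1, which was lower in both Sorbinil retinas, and for Nr1d2, which was level. Those of Per2 and Ciart, at 52.5% and 29.2% of the DMSO mean in Sorbinil replicate 1, are also given. That of Dbp, at 41.2% there, is not shown. The sequences were read from GRCm39, the build named for the counts, upstream of the canonical transcript start in GENCODE vM39. Stretches that overlap exons of protein-coding genes were left out. Capitals mark matches, on either strand, to the E-box CACGTG, its variant CACGTT, the D-box TTATGTAA or TTACGTAA, the cAMP response element TGACGTCA and the ROR response element core TAGGTCA.
Per1, plus strand, chr11:68989018-68989267: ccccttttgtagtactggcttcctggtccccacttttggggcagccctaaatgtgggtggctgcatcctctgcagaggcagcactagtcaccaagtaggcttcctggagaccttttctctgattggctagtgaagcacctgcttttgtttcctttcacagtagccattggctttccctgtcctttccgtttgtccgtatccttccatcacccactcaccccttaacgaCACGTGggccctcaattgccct
Per2, minus strand, chr1:91387070-91387296: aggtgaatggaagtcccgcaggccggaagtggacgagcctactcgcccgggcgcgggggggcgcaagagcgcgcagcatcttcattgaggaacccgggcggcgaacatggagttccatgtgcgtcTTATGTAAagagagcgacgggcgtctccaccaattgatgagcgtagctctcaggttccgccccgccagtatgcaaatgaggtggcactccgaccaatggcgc
Ciart, minus strand, chr3:95789564-95789644: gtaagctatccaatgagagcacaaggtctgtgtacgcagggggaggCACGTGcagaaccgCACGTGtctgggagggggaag
Nr1d2, plus strand, chr14:4230295-4230544: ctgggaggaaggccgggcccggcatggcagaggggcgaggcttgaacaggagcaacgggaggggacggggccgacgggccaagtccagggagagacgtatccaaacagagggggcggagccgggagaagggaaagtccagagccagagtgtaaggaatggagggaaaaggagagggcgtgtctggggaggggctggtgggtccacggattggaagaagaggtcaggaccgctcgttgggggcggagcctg
Per1 held an E-box starting 22 bases before the transcript start, and Ciart held a pair, starting 42 and 28 bases before it, with another at 100 bases outside the stretch shown. Per2 held a D-box starting 125 bases before its start, and Nr1d2 held none of the motifs in its window. Over windows of 250 bases, the E-box was in 4 of the 10 members (Per1, Cry1, Ciart and Tef), compared to 7.37% of 14640 promoters of genes tested. Its variant was in 3 members (Cry1, Cry2 and Nr1d1), compared to 4.8% of promoters, and the D-box in 2 (Per2 and Per3), compared to 0.738%. The ROR response element core was in Dbp alone and in 1.78% of promoters, and the cAMP response element was in 0 members and in 2.01% of promoters. The 4 members with an E-box had log2 fold changes of -0.51 (Per1), -0.01 (Cry1), -0.70 (Ciart, -0.09 without Sorbinil replicate 1) and -0.19 (Tef). The members without it had -0.55 (Dbp), -0.47 (Per2), -0.34 (Cry2), -0.08 (Nr1d1), -0.07 (Per3) and 0.03 (Nr1d2). Without Sorbinil replicate 1, Dbp, Per2 and Cry2 had -0.06, -0.12 and -0.02. A link between these motifs and the differences was not tested. A match to these letters is a description of the window and does not show a bound site.

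Levels of different genes were compared per kilobase of annotated exon sequence in the DMSO retinas. Nr1d1 was the highest at 68.7 ± 9.6 CPM per kb (SD, n = 3), followed by Dbp at 55.6 ± 9.2 CPM per kb, and the DMSO ranges of these neighbours overlapped. Exons of Thra and Sphk2 lie opposite 52.3% and 15.5% of the exon bases of Nr1d1 and Dbp. Whether reads were counted by strand is not given, and the part of such reads in these levels was not tested. Tef at 28.2 ± 2.1 and Nr1d2 at 23.2 ± 1.9 CPM per kb came next, in ranges that did not overlap. Per1 at 15.1 ± 0.5, Cry2 at 13.9 ± 1.9 and Cry1 at 13.3 ± 1.1 CPM per kb followed. Cry2 overlapped both Per1 and Cry1, whereas Per1 was above Cry1 in each DMSO retina. Ciart at 5.42 ± 0.90, Per3 at 3.56 ± 0.11 and Per2 at 2.84 ± 0.14 CPM per kb were the lowest, each in a range of its own. With Sorbinil, Per1 was at 11.3 and 9.85 CPM per kb, below every DMSO value of Cry1. The spread among DMSO retinas was smallest for Per3, Per1 and Per2, with coefficients of variation of 3.22%, 3.40% and 4.85%, and largest for Dbp and Ciart, at 16.6% and 16.5%.

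The activators lay on the other side of 0 from most of the members. Arntl (Bmal1 in the annotation) measured 73.2, 82.2 and 82.5 CPM with DMSO and 129.8 and 87.6 CPM with Sorbinil. Clock measured 126.9, 118.1 and 110.3 CPM with DMSO and 161.4 and 136.1 CPM with Sorbinil. For both genes each Sorbinil retina was above every DMSO retina, as for the 12.8% of genes given above, and Arntl in particular was high in Sorbinil replicate 1. Their log2 fold changes were 0.45 and 0.33, at edgeR unadjusted p of 0.0559 and 0.0536, and neither was called. Without Sorbinil replicate 1 they were 0.15 and 0.21. Npas2, a relative of Clock, and Arntl2, a relative of Arntl, had log2 fold changes of 0.15 and 0.46 in overlapping groups. Of the exon bases of Clock, 11.9% lie opposite exons of Tmem165.

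Of the 7 factors of the auxiliary loops, only Rora had an unadjusted p-value under 0.05, on the higher side, as did 3.23% of all genes tested. Rora, a ROR receptor that activates Bmal1, measured 362.5, 385.9 and 434.2 CPM with DMSO and 685.0 and 507.9 CPM with Sorbinil. Its log2 fold change was 0.60 ± 0.18 (edgeR unadjusted p = 0.0186, adjusted p = 0.758), and it was 0.38 without Sorbinil replicate 1. Leaving out DMSO replicate 1 or 2 brought the edgeR unadjusted p of Rora to 0.0757 or 0.0752. Rorb and Nfil3 were also above every DMSO retina in both Sorbinil retinas, with log2 fold changes of 0.44 and 0.23. Bhlhe41, an E-box repressor, was below every DMSO retina in both, at 82.2% and 85.8% of the DMSO mean, with a log2 fold change of -0.25 (edgeR unadjusted p = 0.117). Of the 7 factors, 3 were thus above and 1 below every DMSO retina in both Sorbinil retinas, compared to 12.8% and 10.5% of all genes. Rorb is a photoreceptor and inner-retina ROR receptor, and Nfil3 encodes a bZIP repressor that competes with DBP at the D-box. Bhlhe40, the paralog of Bhlhe41, had the lowest log2 fold change of the list at -0.54, and it was at 39.0% of the DMSO mean in Sorbinil replicate 1 but 98.7% in Sorbinil replicate 3. Hlf, the remaining PAR bZIP gene, likewise was at 51.6% and 117.6% of the DMSO mean. None of the 8 kinase and ubiquitin ligase genes that act on PER and CRY had an unadjusted p-value under 0.05, and their log2 fold changes ran from Csnk1e at -0.20 to Gsk3b at 0.27.

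Among 7 output genes, Usp2 alone had an unadjusted p-value under 0.05, on the lower side, as did 1.78% of all genes tested. Like Per1, it was low in both Sorbinil retinas. Usp2, a ubiquitin protease gene under clock control, measured 184.2, 169.5 and 179.4 CPM with DMSO and 144.3 and 94.7 CPM with Sorbinil. Both Sorbinil retinas were below every DMSO retina, at 81.2% and 53.3% of the DMSO mean. Usp2 thus had a log2 fold change of -0.57 ± 0.20 (edgeR unadjusted p = 0.0311, adjusted p = 0.758). Leaving out Sorbinil replicate 1 gave -0.90, and leaving out Sorbinil replicate 3 gave -0.30. The edgeR unadjusted p of Usp2 was 0.0834, 0.0650 and 0.0724 when DMSO replicate 1, 2 or 3 was left out. With the replicate number as a block it was 0.110. Nampt was also below every DMSO retina in both Sorbinil retinas, at 84.6% and 93.6% of the DMSO mean. This held for 2 of the 7 output genes, Usp2 and Nampt, compared to 10.5% of all genes tested. Wee1, a cell cycle kinase gene with E-boxes, had the lowest log2 fold change of the outputs at -0.60, with 37.7% of the DMSO mean in Sorbinil replicate 1 and 93.7% in Sorbinil replicate 3. Adcy1, an adenylyl cyclase gene of photoreceptors, had the highest at 0.37, with 703.9 CPM in Sorbinil replicate 1 and 417.2 CPM in Sorbinil replicate 3, compared to 429.6 to 443.1 CPM with DMSO.

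Of 7 genes of light input, dopamine and melatonin signaling, 6 were tested and only Opn4 was called, compared to 1.71% of all genes tested. Opn4, the melanopsin gene of intrinsically photosensitive ganglion cells, was counted 158, 160 and 76 times in the DMSO retinas but 19 and 79 times in the Sorbinil retinas. These are 1.63, 2.00 and 1.37 CPM for DMSO, all above the 0.361 and 1.16 CPM for Sorbinil. Its log2 fold change was -1.11 ± 0.53 (edgeR unadjusted p = 0.0828, adjusted p = 0.758). It was no longer called without DMSO replicate 1 (-1.13), DMSO replicate 2 (-0.97), DMSO replicate 3 (-1.23) or Sorbinil replicate 1 (-0.51), nor with library-size scaling (-1.15) or the replicate number as a block (-1.16). The 10 ganglion cell markers had a median log2 fold change of -0.73 beside it, and the part of ganglion cell number in the Opn4 value was not tested. Th, which makes dopamine in amacrine cells, and the receptor genes Drd1 and Drd2 were at 37.7%, 44.3% and 41.3% of the DMSO mean in Sorbinil replicate 1 and at 98.8%, 99.4% and 111.5% in Sorbinil replicate 3.

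**Figure D3:**
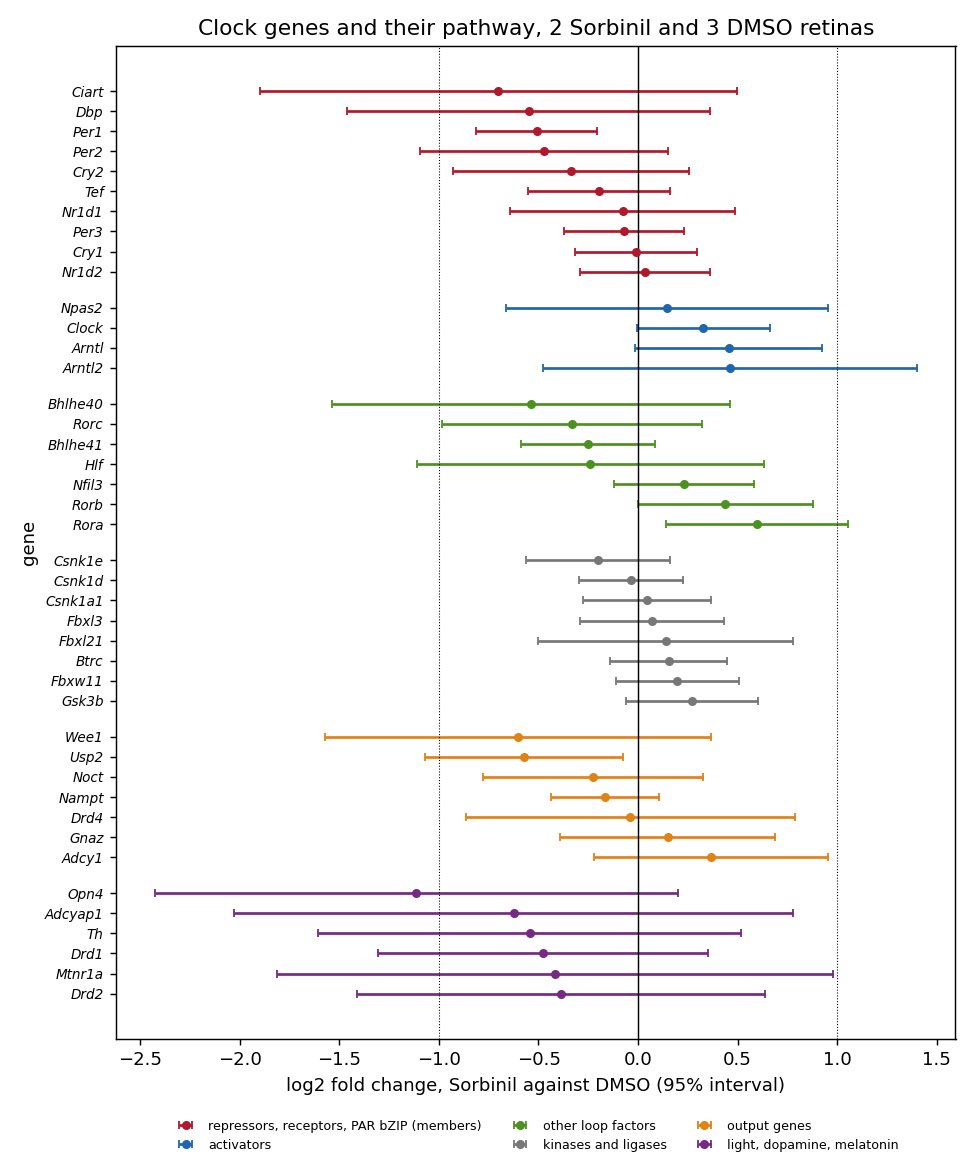
Points give the log2 fold change of Sorbinil against DMSO (horizontal axis) and bars its 95% interval from edgeR's quasi-likelihood fit, for the members and 5 further lists of clock-related genes (rows), with dotted lines at a 2-fold change. The intervals of Per1, Usp2 and Rora lie off 0, and Opn4 has the only point beyond a 2-fold change.

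The ratio of a clock gene to Arntl within a retina does not depend on scaling, and it was computed after the separate values had been seen. The log2 ratio of Per1 to Arntl was 0.65, 0.54 and 0.44 in the DMSO retinas and -0.58 and -0.22 in Sorbinil replicates 1 and 3, both well below the DMSO range. For Dbp it was 1.65, 1.07 and 1.09 with DMSO, -0.71 in Sorbinil replicate 1 and 1.07 at the lower edge of the DMSO range in Sorbinil replicate 3. In Sorbinil replicate 1 the ratio was below every DMSO retina for 10 of 10 members, and in both Sorbinil retinas for 7 of 10. The same held for 88.8% and 46.0% of all genes tested, since Arntl itself was above every DMSO retina in both Sorbinil retinas. In Sorbinil replicate 3 it was only slightly so, at 87.6 CPM compared to 82.5 CPM in DMSO replicate 3. The count of 10 of 10 is thus close to the background. The count of 7 of 10 is a higher share than 46.0%, and that difference was not tested. It includes Dbp and Per3, which were below in Sorbinil replicate 3 by a very small margin. Their ratios there were 1.07205 and -1.196, compared to lowest DMSO values of 1.07244 and -1.185.

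**Figure D4:**
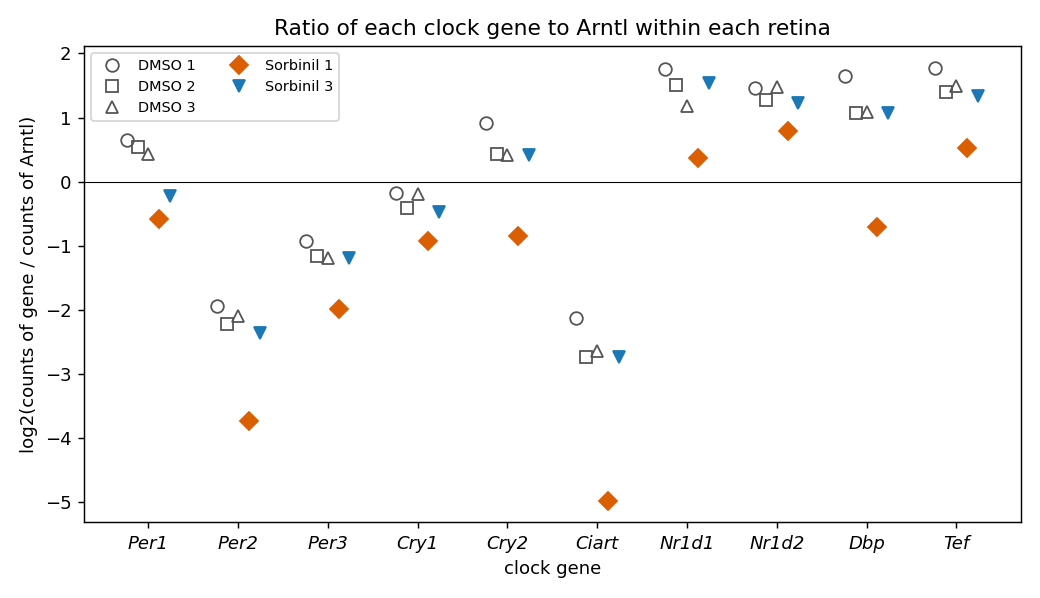
The log2 ratio of each clock gene's counts to those of Arntl (vertical axis) is plotted within each of the 5 retinas. Sorbinil replicate 1 had the lowest ratio for each gene, and for Per1 Sorbinil replicate 3, at -0.22, was also apart from the DMSO retinas, at 0.44 to 0.65.

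The members did not share 1 profile over the 5 retinas. The Euclidean distance of a gene's centred log2 CPM from the median profile of the 10 members was smallest for Tef, at 0.15, and largest for Ciart and Dbp, at 1.2 and 0.78. Outside the members, St3gal3, Csad, Sertad1, Pcdhb20, Ppp1r1b and Cdh4 had the nearest profiles of all genes tested, at distances of 0.080 to 0.095. The median profile was 0.20, 0.08 and 0.12 in the DMSO retinas, -0.31 in Sorbinil replicate 1 and 0.07 in the other Sorbinil retina.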

How the data were processed

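Adaptors were trimmed and reads mapped to GRCm39 by the authors in CLC Genomics Workbench, and the deposited values are whole-number total counts per gene without normalization. The annotation release, the treatment of reads on several genes and the use of strand are not given in the sources used here, although the labels name a reverse-stranded library. Per the study, each retina came from a different mouse. A further Sorbinil replicate, excluded by the authors after PCA, was not analysed here. No 2 retinas matched within counting noise, the lowest chi-square over its degrees of freedom being 25.5. The lowest count of a clock gene was 217.

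Counts were filtered with filterByExpr (minimum count 10), given TMM factors, and fitted by quasi-likelihood (glmQLFit, glmQLFTest; edgeR 4.0.16, R 4.3.3), with Benjamini-Hochberg adjustment over 14992 genes. Values after ± are SDs for levels and, for log2 fold changes, standard errors taken as the fold change over the root of F. The prior count for log2 CPM was 2, whereas ratios to Arntl over all genes had a pseudocount of 0.5. The steps were tested on simulated data. Alternatives covered scaling, filters, the likelihood ratio test, DESeq2 1.42.0, the replicate number as a block, thresholds and leaving out each retina. The named genes are the members, the activators and the 6 nearest profiles. From the other lists, genes with a call, an unadjusted p-value under 0.05 or the extreme fold changes were named. Nfil3, Rorb, Bhlhe41, Hlf, Nampt, Th, Drd1, Drd2, Thra and the gene ratios were chosen after their values were seen. Members and lists were chosen with earlier results of these data known.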

Additional observations from a re-analysis of the deposited data

How the results depend on the processing

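The count of clock genes called was 0 under 12 of the 15 alternatives. It was 1 with the replicate block (Ciart, -1.01), 1 at an unadjusted p-value under 0.05 with no fold limit (Per1), and 0 to 2 when each retina was left out, 2 without Sorbinil replicate 3. Over all genes, 257 calls (203 lower, 54 higher) grew to 408 when genes of low count were kept (115 higher) and shrank to 148 when each retina needed 10 counts (119 lower, 29 higher). They were 751 at an unadjusted p-value under 0.05 (484 higher) and 0 at an adjusted p-value under 0.05 (0 lower, 0 higher). Library-size scaling gave 33 higher genes and a median log2 fold change of -0.11. Leaving out each retina gave 164 to 2903 calls, 129 to 2656 lower and 35 to 247 higher. The cause was not tested, except that the filters tested 17899 and 14131 genes. At an adjusted p-value under 0.05, the likelihood ratio test called 14 genes and the DESeq2 Wald test 21, none of them a clock gene, and the replicate block 4. Without Sorbinil replicate 3 there were 5576 such genes, among them 5 clock genes (Per1, Per2, Cry2, Ciart and Dbp), in a fit that assumes the lone Sorbinil retina to vary like the DMSO retinas.

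Per1 kept its direction under each alternative (log2 fold change -0.62 to -0.41), with adjusted p-values from 0.028 to 0.99996. The log2 fold change of Nr1d2 turned to -0.072 with library-size scaling, to -0.0038 with the replicate block and, leaving out 1 retina, ran from -0.015 (without Sorbinil replicate 1; also below 0 without DMSO replicate 2, -0.0052) to 0.10. Leaving out 1 retina, Nr1d1 ran from -0.41 to 0.21 (without Sorbinil replicate 1; also above 0 without DMSO replicate 1, 0.0022), Cry1 from -0.060 to 0.054 (above 0 without DMSO replicate 3 or Sorbinil replicate 3, 0.052) and Per3 from -0.18 to 0.046 (above 0 without Sorbinil replicate 1). Replicate numbers are shared by 2 pairs of retinas, whose deviations from the group means correlated at -0.24 and -0.12, and no label says that the numbers pair the retinas. With the block, the unadjusted p-value of Per1 was 0.188 (edgeR's quasi-likelihood test). The alternatives for Arntl, Clock, Rora, Rorb, Usp2, Opn4 and Gsk3b were chosen after seeing the data.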
